A study of Mus musculus with 6 samples.

Results

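The DNA replication and S-phase genes described here are 49 genes, listed by symbol, that encode the proteins which license origins, open and copy DNA, supply deoxynucleotides and package the new strands. All 49 were found among the 21652 genes of a table of ribosome footprint counts, and all 49 were among the 12782 genes with enough counts to be tested. The footprints came from MIN6 cells, a mouse insulin-secreting line from a beta-cell tumour of a mouse strain that carried the simian virus large T antigen under the insulin promoter. One group expressed sgLTN1, a CRISPR guide against Ltn1, and the other sgNT, whose name was read as a guide with no target, with 3 libraries each. The labels do not say whether either culture was a pool or a clone, whether libraries came from separate cultures, or whether the cells were synchronised. P-values therefore measure the spread between these libraries, which may be technical.

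Ribosome profiling counts the mRNA fragments that ribosomes shield from nuclease, so a gene's count combines how much mRNA it has and how densely ribosomes occupy it. Copying DNA begins in G1, when the origin recognition complex, CDC6 and CDT1 load the MCM helicase onto origins. At the entry to S phase cyclin E and its kinase, with the CDC7 kinase, turn the loaded helicase into the active CMG helicase (CDC45, MCM and GINS), and the polymerases, the sliding clamp PCNA and its loader follow. Many of these genes are switched on together by E2F transcription factors once the retinoblastoma proteins release them. Large T antigen binds the retinoblastoma proteins, a property of the line that both groups share.

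Libraries held between 4373467 and 11198735 counts, and single members between 15 and 3627 counts in a library. The target gene checked the labels: Ltn1 had 67.2 ± 3.67 CPM (a library's counts scaled to a common total by its effective size, mean ± SD, n = 3) with sgLTN1 and 143 ± 1.84 CPM with sgNT, with adjusted p = 9.24e-05. Of the beta-cell markers, 7 of 8 were tested, and the glucose transporter gene Slc2a2 had only 35 counts in all. Their summed level, most of it Ins2, Iapp and Ins1, was 92352 to 113881 CPM with sgLTN1 and 94234 to 104627 CPM with sgNT. Of the 7, 3 were below 0 and 4 above. G6pc2 was higher in every sgLTN1 library (log2 fold change 0.15, SE 0.05, unadjusted p = 0.0162 and adjusted p = 0.209 in edgeR). Pdx1 was lower in every sgLTN1 library (-0.12, SE 0.07, adjusted p = 0.411). None of 7 exocrine pancreas markers had enough counts to be tested, with 4 to 33 counts each over the 6 libraries. Of 6 markers of other islet endocrine cells, 4 were tested. At an unadjusted p under 0.05 in edgeR 2 were higher, as were 8% of all tested genes, and their part in the members' values was not tested. Sst, the somatostatin gene, read 40.5, 42.0 and 47.5 CPM with sgLTN1 and 28.9, 30.6 and 31.7 CPM with sgNT (log2 fold change 0.50, SE 0.09, adjusted p = 0.062 in edgeR), and Ppy, the pancreatic polypeptide gene, averaged 6.09 ± 1.02 CPM with sgLTN1 and 3.30 ± 1.07 CPM with sgNT (0.82, SE 0.26, adjusted p = 0.176). The 4 tested markers summed to 581 to 660 CPM with sgLTN1 and 583 to 614 CPM with sgNT, most of it Gcg, the glucagon gene. The summed levels of 4 tested fibroblast and endothelial markers were 10.6 to 14.6 CPM with sgLTN1 and 13.1 to 14.9 CPM with sgNT, and those of 2 tested immune markers were 27.7 to 30.2 CPM with sgLTN1 and 29.4 to 36.4 CPM with sgNT. The median fold change over all genes was higher in ranges of higher abundance, and those values are given with the members.

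Because E2F factors are known regulators of replication genes, the promoters were searched for the E2F motif. The motif was searched on both strands in 4 spellings, TTTCCCGC, TTTCGCGC, TTTGCCGC and TTTGGCGC, from 250 bases before to 50 bases after each RefSeq start site of build GRCm38.p6. A promoter was listed for 41 members, and 15 of these (36.6%) held at least 1 spelling, against 704 of 27025 genes of the whole table (2.61%) and 575 of 17492 protein-coding genes (3.29%). The 4 promoters below, chosen after their values were seen, are the 200 bases before the start site of Mcm5, Mcm6, Cdc6 and Orc1. All 4 held a match. Mcm5, Mcm6 and Cdc6 read lower in every sgLTN1 library, Cdc6 by a narrow margin. So did 34.7% of all members and 10.1% of all tested genes, and Orc1 did not. Gins3, Mcm7, Pola1, Rfc3 and Uhrf1 also held a match in these 200 bases, and none of them read lower in every sgLTN1 library. Capitals mark the matches.
Mcm5 promoter, chr8:75109309-75109508, plus strand: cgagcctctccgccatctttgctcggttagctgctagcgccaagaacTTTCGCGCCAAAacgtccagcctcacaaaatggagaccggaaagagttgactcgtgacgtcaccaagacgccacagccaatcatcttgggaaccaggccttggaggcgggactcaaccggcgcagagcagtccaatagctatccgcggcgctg
Mcm6 promoter, chr1:128359706-128359905, minus strand: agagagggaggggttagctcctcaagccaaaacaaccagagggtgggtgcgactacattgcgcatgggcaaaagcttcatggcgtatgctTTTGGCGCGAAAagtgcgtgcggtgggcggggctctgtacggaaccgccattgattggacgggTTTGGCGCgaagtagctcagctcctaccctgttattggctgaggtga
Cdc6 promoter, chr11:98907951-98908150, plus strand: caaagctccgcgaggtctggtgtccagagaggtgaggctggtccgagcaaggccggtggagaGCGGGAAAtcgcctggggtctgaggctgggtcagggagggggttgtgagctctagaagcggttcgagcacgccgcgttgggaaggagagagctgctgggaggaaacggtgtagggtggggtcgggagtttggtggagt
Orc1 promoter, chr4:108579254-108579453, plus strand: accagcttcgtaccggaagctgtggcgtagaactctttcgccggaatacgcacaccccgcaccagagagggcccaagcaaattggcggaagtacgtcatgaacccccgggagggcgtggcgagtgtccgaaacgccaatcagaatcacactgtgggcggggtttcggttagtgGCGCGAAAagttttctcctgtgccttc
In Mcm5 and in Mcm6 a pair of matches on opposite strands overlap and form a single run of capitals. The match begins 153 bases before the start site in Mcm5, 110 bases and again 47 bases before it in Mcm6, 138 bases before it in Cdc6 and 27 bases before it in Orc1. Of the 15 members with a match, 13 had a log2 fold change below 0 with a median of -0.09, and of the 26 listed members without one, 22 were below 0 with a median of -0.14. A match is only a run of letters, and binding of E2F was not measured.

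Across the 49 members, sgLTN1 cells had slightly fewer footprints than sgNT cells on most genes, and on no single gene was the difference past the threshold. With p-values from edgeR's quasi-likelihood fit, adjusted by Benjamini-Hochberg over all tested genes, 0 members passed the threshold of 0.05, where 0.18% of all tested genes did (0.0939% lower and 0.0861% higher), and the lowest adjusted p of a member was 0.159. The log2 fold change, given throughout as sgLTN1 over sgNT, was below 0 for 41 members, or 83.7%, with a median of -0.09. Among all tested genes 52.7% were below 0 and the median was -0.02.

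At an unadjusted p under 0.05 stood 10 members, all lower with sgLTN1, which is 20.4% of the members against 7.56% of all tested genes. No member was higher at that level, where 8% of all tested genes were. The count of 10 depended on the libraries and the scaling. It was 5 to 7 with 1 library left out (5 without sgLTN1 library 2, against 4.35% of all genes, and 5 without sgNT library 2, against 6.26%, with 1 member higher there), 5 with no filter on low counts (against 5.29%) and 24 under total counts (against 13.4%). The 3 sgLTN1 values all lay under the 3 sgNT values for 17 members (34.7%), and 10.1% of all tested genes were separated in that way. They all lay above for 2 members, with 10.1% of all tested genes separated upward. The members share their libraries and the scaling of those libraries, so these counts describe a set of related measurements and were not tested as a set.

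On the same counts, limma-voom called 0 members, with 12 lower at an unadjusted p under 0.05, or 24.5% against 8.17% of all genes. The authors' deposited table, made with DESeq2, gave an adjusted p for 21 of the 49 members and called 0 of them, with 0 at an unadjusted p under 0.05 and the lowest adjusted p at 0.260 for Nasp. Over all genes that table gave an adjusted p for 2697 and called 227 of them. The log2 fold changes of 39 members were below 0 in the authors' deposited table. DESeq2 run here on these counts gave the same counts of calls. In that run 0 members were lower at an unadjusted p under 0.05, against 2.79% of all tested genes. Leaving out any one of the 6 libraries kept the count of calls at 0 and the count below 0 between 37 and 40. Fewer cells in S phase and fewer footprints per cell on these genes cannot be told apart in such bulk libraries, and without RNA-seq of the same cells neither can mRNA level and ribosome density.

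**Figure D1:**
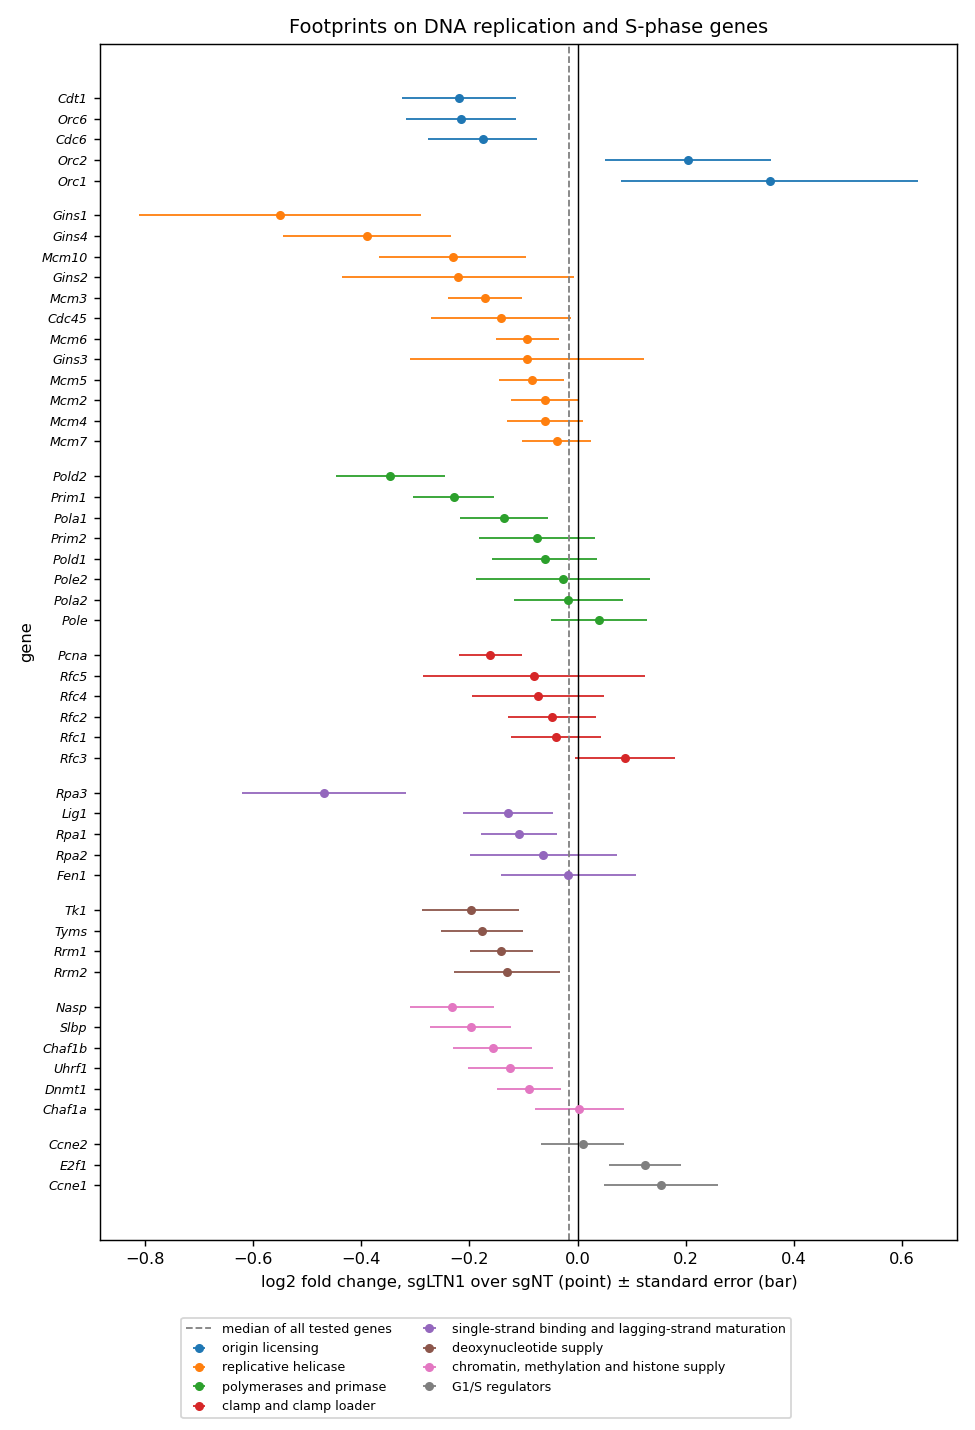
Log2 fold change of sgLTN1 over sgNT (points) with its standard error (bars) for each of the 49 members, grouped and coloured by role and ordered within each role. The dashed line is the median of all tested genes at -0.02, and 41 points lie left of the solid line at 0.

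The difference was present in the sum as well. Summed over all 49 members, footprints were 3028, 3010 and 2959 CPM in sgLTN1 libraries 1 to 3 and 3155, 3296 and 3195 CPM in sgNT libraries 1 to 3. Every sgLTN1 library lay under every sgNT library, and the ratio of the means was 0.933. Without Rrm1, the member with the most footprints, the ratio was 0.936. Taken one library at a time, 38, 39 and 39 of the 49 members lay below their sgNT mean in sgLTN1 libraries 1 to 3, against 51.8%, 51.8% and 49.1% of all tested genes. In log2 CPM, the members' median deviation from that mean was -0.10, -0.12 and -0.09 in sgLTN1 libraries 1 to 3. In sgNT libraries 1 to 3, which make up that mean, it was -0.04, 0.02 and 0.01.

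Origin licensing genes were mixed. Footprints on Cdt1, whose protein brings the helicase to origins and is destroyed once S phase begins, were 31.7, 38.0 and 33.7 CPM in sgLTN1 libraries and 36.4, 44.5 and 38.4 CPM in sgNT libraries. The groups overlapped, because sgLTN1 library 2 lay above sgNT library 1 (log2 fold change -0.22, SE 0.11, adjusted p = 0.345, and -0.11 without sgNT library 2). Orc6, the smallest subunit of the origin recognition complex, read 23.6, 20.7 and 20.3 CPM with sgLTN1 and 24.1, 24.2 and 27.6 CPM with sgNT. All 3 sgLTN1 values were lower, by a margin that was narrow between sgLTN1 library 1 and sgNT library 1 (-0.22, SE 0.10, adjusted p = 0.341).

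Cdc6, the ATPase that joins the origin recognition complex to load the helicase, averaged 17.3 ± 1.29 CPM with sgLTN1 and 19.4 ± 0.507 CPM with sgNT (-0.18, SE 0.10, adjusted p = 0.438). The groups did not overlap, but the margin was narrow, with 18.7 CPM in sgLTN1 library 3 and 19.0 CPM in sgNT library 3. The other 2 origin recognition genes pointed upward. Orc1 held only 15 to 37 counts per library and read 3.34, 3.91 and 6.16 CPM with sgLTN1 and 3.44, 2.97 and 3.67 CPM with sgNT, with a log2 fold change of 0.36 (SE 0.28) that was 0.13 without sgLTN1 library 3. Orc2 read 10.6 CPM in sgNT library 3 and 15.8 to 17.6 CPM in the other 5 libraries (0.20, SE 0.15, and 0.042 without sgNT library 3). Neither passed the test, with adjusted p = 0.589 for Orc1 and 0.575 for Orc2.

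All 12 members of the replicative helicase group were below 0. The 6 subunits of the MCM ring, Mcm2 to Mcm7, had log2 fold changes between -0.17 and -0.04. Footprints on Mcm3 were 135, 131 and 126 CPM in sgLTN1 libraries and 137, 151 and 154 CPM in sgNT libraries, without overlap (-0.17, SE 0.07, unadjusted p = 0.03 and adjusted p = 0.262). Mcm6 read 156, 155 and 158 CPM with sgLTN1 and 168, 166 and 165 CPM with sgNT, a small difference with tight groups (-0.09, SE 0.06, adjusted p = 0.478). Mcm5 behaved likewise, at 130.2, 130.1 and 133 CPM with sgLTN1 and 139, 141 and 136 CPM with sgNT (-0.08, SE 0.06, adjusted p = 0.547).

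The remaining 3 ring subunits overlapped between the groups. Mcm2, the ring subunit with the most footprints, read 223, 221 and 208 CPM with sgLTN1 and 216, 237 and 228 CPM with sgNT (-0.06, SE 0.06, adjusted p = 0.708). The 95% interval of that log2 difference, -0.20 to 0.08, holds both no difference and the values of the other subunits. Summed over the ring, footprints were 860, 856 and 837 CPM in sgLTN1 libraries and 875, 925 and 908 CPM in sgNT libraries, a ratio of 0.943 with no overlap.

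GINS, the 4-subunit ring-binding complex of the active helicase, had the lowest ratio of summed footprints among the 10 complexes and pairs. Gins4 read 9.30, 10.4 and 10.1 CPM with sgLTN1 and 14.0, 10.6 and 15.1 CPM with sgNT, where sgNT library 2 lay close to the sgLTN1 values (-0.39, SE 0.16, unadjusted p = 0.0292 and adjusted p = 0.261). Gins1 was the lowest of all members at -0.55 (SE 0.26, adjusted p = 0.341), with 3.40 ± 1.02 CPM in sgLTN1 and 4.79 ± 0.813 CPM in sgNT and with overlap. Gins1 held only 20 to 35 counts per library and was at -0.35 without sgLTN1 library 1. Gins2 stood at -0.22 (SE 0.21, and -0.043 without sgLTN1 library 1) and Gins3 at -0.09 (SE 0.22). Over the 4 genes the sum was 26.5, 27.8 and 27.1 CPM in sgLTN1 libraries and 32.1, 31.0 and 37.1 CPM in sgNT libraries, a ratio of 0.813. Cdc45, the third part of the CMG helicase, ranged widely among sgLTN1 libraries, from 25.7 to 38.2 CPM, against 33.2 to 37.1 CPM in sgNT libraries (-0.14, SE 0.13, and -0.31 without sgLTN1 library 1 or -0.027 without sgLTN1 library 3). Mcm10, which helps activate the assembled helicase, averaged 12.3 ± 1.26 CPM with sgLTN1 and 14.4 ± 1.91 CPM with sgNT (-0.23, SE 0.14, adjusted p = 0.447, and -0.085 without sgNT library 2).

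**Figure D2:**
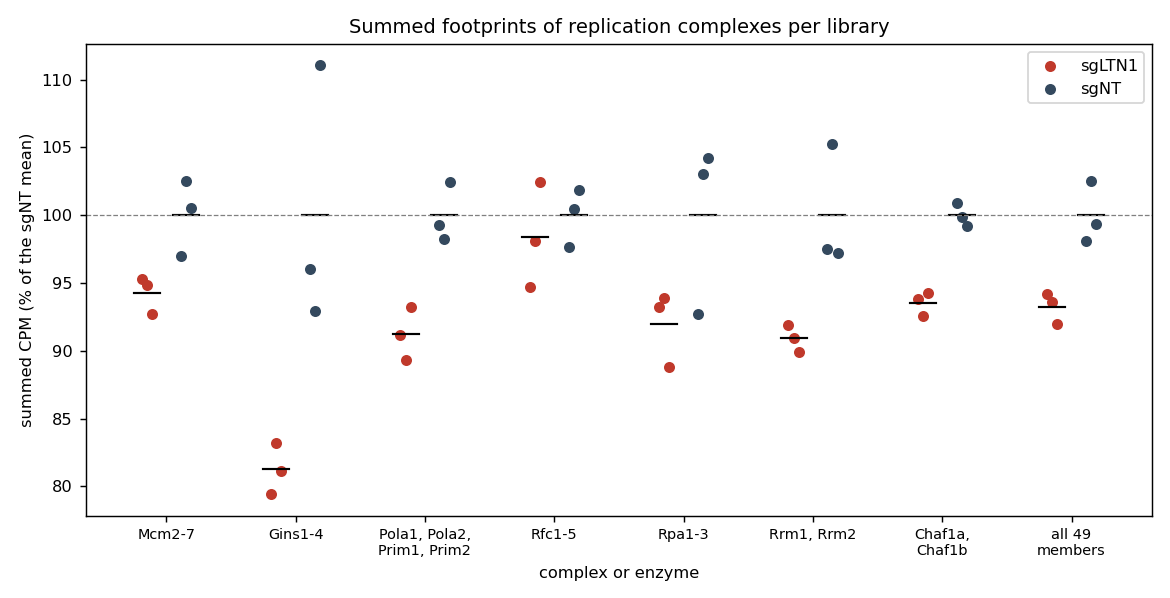
Summed CPM of each complex in each library, as a percentage of the sgNT mean of that complex, with sgLTN1 libraries in red and sgNT libraries in dark blue and bars at the group means (the vertical axis does not start at 0). Gins1 to Gins4 sit at 79.4% to 83.2% in sgLTN1 libraries, while Rfc1 to Rfc5 and Rpa1 to Rpa3 overlap between the groups.

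Among the polymerase genes, the lowest log2 fold changes were those of Pold2 and Prim1. Pold2, the accessory subunit that binds the catalytic chain of polymerase delta, had the smallest p of all members. Its footprints were 17.9, 18.7 and 16.6 CPM in sgLTN1 libraries and 20.6, 23.3 and 23.9 CPM in sgNT libraries, without overlap. That is 0.787 of the sgNT level (log2 fold change -0.35, SE 0.10, unadjusted p = 0.0056 and adjusted p = 0.159). Pold1, the catalytic subunit of the same enzyme, read 44.4, 41.8 and 43.4 CPM with sgLTN1 and 48.8, 47.4 and 38.6 CPM with sgNT, and the groups overlapped (-0.06, SE 0.10, adjusted p = 0.82). The difference between the responses of Pold1 and Pold2 was not tested.

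Prim1, the catalytic primase subunit that makes RNA primers, read 43.1, 41.8 and 42.5 CPM with sgLTN1 and 48.1, 49.9 and 51.3 CPM with sgNT. The gap between the groups was wider than either group's own range (-0.23, SE 0.08, unadjusted p = 0.0112 and adjusted p = 0.19). Its partner Prim2 overlapped at 18.8 ± 1.92 CPM with sgLTN1 and 20.1 ± 0.972 CPM with sgNT (-0.07, SE 0.11). Pola1, the catalytic subunit of polymerase alpha, stood at -0.14 (SE 0.08) and its partner Pola2 at -0.02 (SE 0.10). The 4 genes of the polymerase alpha and primase complex summed to 142, 139 and 145 CPM in sgLTN1 libraries and 155, 153 and 160 CPM in sgNT libraries, a ratio of 0.912 without overlap.

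Polymerase epsilon, the leading-strand enzyme, differed little. Pole, its catalytic subunit, read 97.3, 94.9 and 83.8 CPM in sgLTN1 libraries and 95.6, 93.8 and 79.8 CPM in sgNT libraries, with library 3 the lowest of each group (0.04, SE 0.09, adjusted p = 0.884). The sign of that value turned under total-count scaling. Pole2 was at -0.03 (SE 0.16), and its 95% interval of -0.38 to 0.33 leaves room for differences as large as that of Pold2.

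Pcna, the sliding clamp that tethers polymerases and recruits many other replication proteins, read 188, 185 and 188 CPM in sgLTN1 libraries and 205, 215 and 206 CPM in sgNT libraries. All sgLTN1 values were lower, and the gap was wider than the spread of either group (0.894 of the sgNT level, log2 fold change -0.16, SE 0.06, unadjusted p = 0.0185 and adjusted p = 0.219). The 5 loader genes, Rfc1 to Rfc5, lay between -0.08 and 0.09. Rfc3 read 20.4, 20.5 and 20.5 CPM with sgLTN1 and 18.6, 20.2 and 18.8 CPM with sgNT, higher in every sgLTN1 library by a narrow margin (0.09, SE 0.09, adjusted p = 0.754). Summed over the loader, footprints were 114, 118 and 123 CPM with sgLTN1 and 117, 120.5 and 122 CPM with sgNT, a ratio of 0.984 with overlap. Whether Pcna differs from its loader genes in response was not tested.

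Of the genes that protect single strands and finish the lagging strand, Rpa3 stood lowest. RPA coats unwound DNA, and Rpa3 encodes its smallest subunit. Rpa3 read 7.94, 6.95 and 9.04 CPM in sgLTN1 libraries and 9.86, 10.9 and 11.9 CPM in sgNT libraries, without overlap (-0.47, SE 0.15, unadjusted p = 0.0106 and adjusted p = 0.188). Rpa1, the large DNA-binding subunit and the member of this group with the most footprints, read 139.9, 141 and 127 CPM with sgLTN1 and 138, 153 and 149 CPM with sgNT, with overlap (-0.11, SE 0.07, adjusted p = 0.501). Rpa2 overlapped too, at -0.06 (SE 0.14). Lig1, the ligase that seals Okazaki fragments, averaged 84.1 ± 2.45 CPM with sgLTN1 and 91.8 ± 9.64 CPM with sgNT, where sgNT library 1 alone was low at 80.7 CPM (-0.13, SE 0.08). Fen1, the nuclease that trims primer flaps, read 14.4 to 17.3 CPM with sgLTN1 and 13.9 to 17.0 CPM with sgNT (-0.02, SE 0.12).

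**Figure D3:**
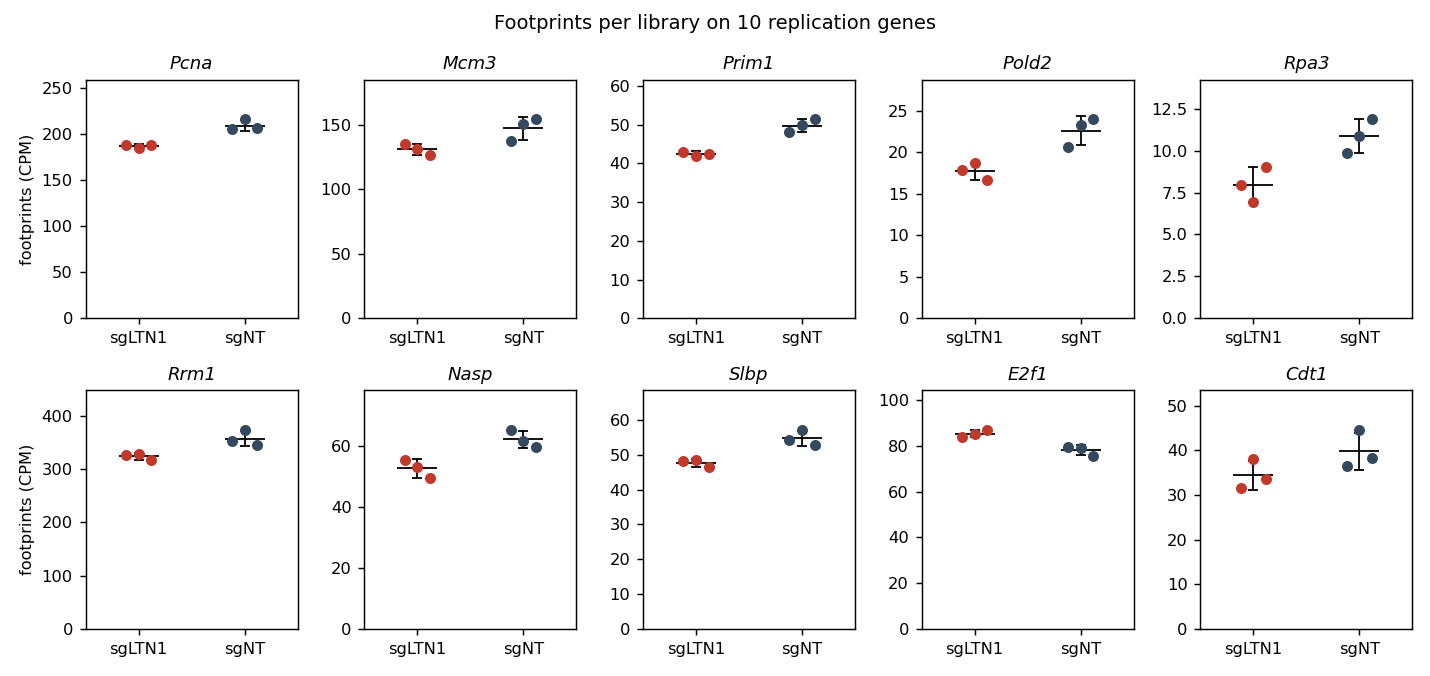
Footprints in CPM in each of 3 sgLTN1 libraries (red, left in each panel) and 3 sgNT libraries (dark blue, right) for 10 members, with the mean and SD as bars and all vertical axes from 0. Pcna, Mcm3, Prim1, Pold2, Rpa3, Rrm1, Nasp and Slbp are lower in every sgLTN1 library, E2f1 is higher in every one, and Cdt1 overlaps. The 10 were picked by hand from the members named in the text and do not stand for all 49. Of the 49, 17 (34.7%) were lower in every sgLTN1 library and 30 overlapped, and 10.1% of all tested genes were lower in that way.

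The 4 genes of deoxynucleotide supply all lay below 0, between -0.20 and -0.13. Rrm1, the large subunit of ribonucleotide reductase, which makes deoxynucleotides from ribonucleotides, read 327, 328 and 317 CPM in sgLTN1 libraries and 353, 373 and 346 CPM in sgNT libraries. The groups did not overlap (0.907 of the sgNT level, log2 fold change -0.14, SE 0.06, unadjusted p = 0.0339 and adjusted p = 0.276). Rrm2, the small subunit that limits the enzyme in S phase, overlapped at 45.6 ± 3.37 CPM with sgLTN1 and 49.4 ± 5.46 CPM with sgNT (-0.13, SE 0.10, and -0.030 without sgNT library 2).

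Tyms, the thymidylate synthase, read 57.1, 59.1 and 53.4 CPM in sgLTN1 libraries and 61.2, 64.8 and 66.2 CPM in sgNT libraries, without overlap (-0.18, SE 0.08, unadjusted p = 0.0399 and adjusted p = 0.294). Tk1, the thymidine kinase of the salvage route, read 22.6, 20.6 and 21.8 CPM with sgLTN1 and 25.4, 24.1 and 25.2 CPM with sgNT (-0.20, SE 0.09, adjusted p = 0.325). In all, 3 of these 4 genes were lower in every sgLTN1 library, against 10.1% of all tested genes. The group's sum was 0.904 of the sgNT mean.

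Of the genes that package and mark the new DNA, 5 of 6 were below 0 (52.7% of all tested genes) and 4 of 6 were lower without overlap (10.1% of all tested genes). Nasp, a chaperone that holds a reserve of histones H3 and H4 and of linker histones, read 55.5, 53.3 and 49.5 CPM in sgLTN1 libraries and 65.3, 61.9 and 59.8 CPM in sgNT libraries (0.851 of the sgNT level, -0.23, SE 0.08, unadjusted p = 0.013 and adjusted p = 0.197). Slbp, which binds the stem-loop of replication-dependent histone mRNAs and is needed for their processing and translation, read 48.1, 48.5 and 46.4 CPM with sgLTN1 and 54.3, 57.0 and 52.6 CPM with sgNT (-0.20, SE 0.08, unadjusted p = 0.0236 and adjusted p = 0.24). Both histone supply genes were therefore lower in all 3 sgLTN1 libraries.

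CAF-1 places new histones behind the fork, and the difference between its 2 listed subunits was not tested. Chaf1b averaged 52.3 ± 1.03 CPM with sgLTN1 and 58.3 ± 1.82 CPM with sgNT, without overlap (-0.16, SE 0.07, adjusted p = 0.332), while Chaf1a averaged 33.6 ± 1.26 CPM with sgLTN1 and 33.5 ± 1.05 CPM with sgNT (0.00, SE 0.08, 95% interval -0.18 to 0.18, with the sign turned under total-count and upper-quartile scaling). Dnmt1, the methyltransferase that copies CpG methylation, read 203, 199 and 211 CPM in sgLTN1 libraries and 225, 214 and 214 CPM in sgNT libraries, lower in every sgLTN1 library by a narrow margin (-0.09, SE 0.06, adjusted p = 0.516). Uhrf1, which brings DNMT1 to newly copied DNA, overlapped at 89.4 to 100.7 CPM with sgLTN1 and 98.4 to 112 CPM with sgNT (-0.12, SE 0.08).

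The 3 members grouped as G1/S regulators stood above 0. A separate list of 28 tested E2F and G1/S control genes, described below, had a median of -0.07. E2f1, the transcription factor that drives many of the genes above, read 83.9, 85.1 and 86.9 CPM in sgLTN1 libraries and 79.8, 78.9 and 75.7 CPM in sgNT libraries, higher in every sgLTN1 library (0.12, SE 0.07, adjusted p = 0.405). Ccne1, a cyclin E gene, read 30.2, 29.5 and 26.1 CPM with sgLTN1 and 27.5, 27.5 and 22.4 CPM with sgNT, with overlap (0.15, SE 0.11, adjusted p = 0.532). Ccne2, the other cyclin E gene, was level at 60.2 ± 3.24 CPM with sgLTN1 and 60.0 ± 2.40 CPM with sgNT (0.01, SE 0.08, 95% interval -0.16 to 0.18), and its sign turned under total-count and upper-quartile scaling. None of the 3 passed the test, and the difference between these 3 genes and the other members was not tested.

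By role, the summed footprints of 6 of the 8 groups were lower in every sgLTN1 library, that of the G1/S regulators was higher in every one, and that of single-strand binding and lagging-strand maturation overlapped. Among 10 complexes and subunit pairs, 6 were lower in every sgLTN1 library and 4 overlapped. Of single tested genes 10.1% were lower in every sgLTN1 library, and no such share was computed for sums over other genes. The complexes are made of the same members as the roles, so these counts are not separate results. Sums are led by the members with the most footprints, and a count per gene is not divided by coding length, so levels of different genes were not set against each other.

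Footprint abundance moved with the fold change across all genes. Over all tested genes the median log2 fold change was -0.05 between 2 and 4 on the log2 CPM scale, -0.00 between 4 and 6, 0.04 between 6 and 8 and 0.14 above 8. The members in the same ranges had medians of -0.16 for 10 genes, -0.13 for 25 genes, -0.09 for 13 genes and -0.14 for Rrm1 alone. In each range the median of the members therefore lay under that of all genes. Not every member did: 9 of 10 were below 0 between 2 and 4, 20 of 25 between 4 and 6, and 11 of 13 between 6 and 8. When the trend of each library with abundance was removed, the members' median was -0.15 against -0.00 for all genes, 41 members were below 0, 17 were lower at an unadjusted p under 0.05 (34.7% against 7.83% of all genes) and 0 passed the threshold.

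**Figure D4:**
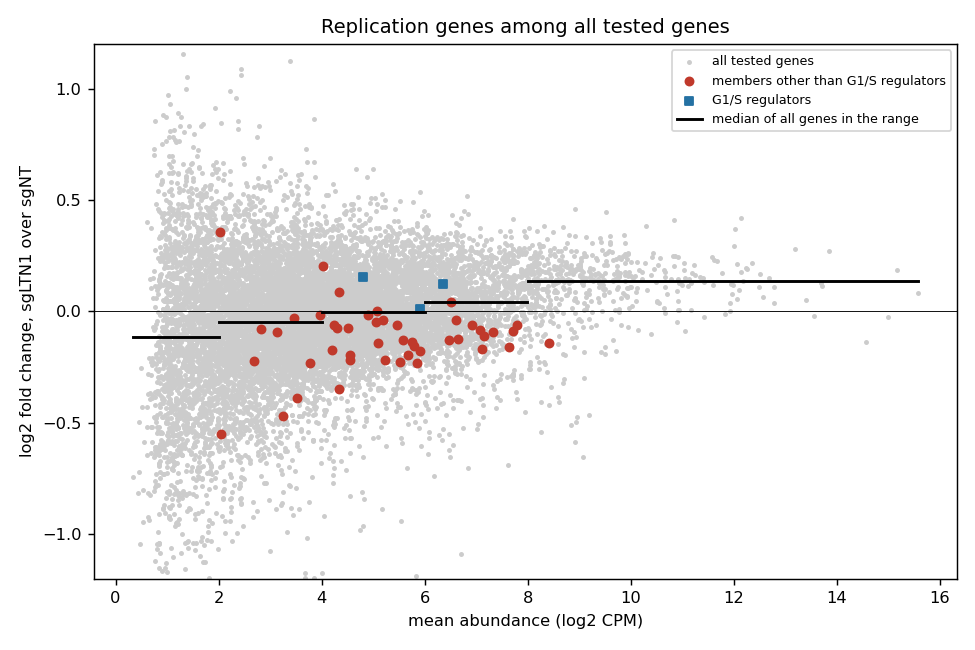
Log2 fold change of sgLTN1 over sgNT against mean abundance in log2 CPM for all tested genes (grey) and the 49 members (red circles, and blue squares for the 3 G1/S regulators), with black bars at the median of all genes in each abundance range. Most red points lie under the black bars, and 42 grey genes lie beyond the vertical axis.

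Other genes of the same processes were described from separate lists. Among 30 further replication fork and origin genes, 14 were below 0 and the median was 0.03, with 0 past the threshold. At an unadjusted p under 0.05 in edgeR 1 was lower (3.33%, against 7.56% of all tested genes). That one was Rnaseh2a, the catalytic subunit of the RNase that removes ribonucleotides from DNA, at 24.4, 24.8 and 23.6 CPM in sgLTN1 libraries and 28.4, 29.2 and 31.9 CPM in sgNT libraries (-0.29, SE 0.09, adjusted p = 0.165). Clspn, the claspin gene of the fork checkpoint, was next, at 40.1 ± 0.457 CPM with sgLTN1 and 45.1 ± 4.15 CPM with sgNT (-0.17, SE 0.09, adjusted p = 0.374). Of 17 further chromatin assembly genes, 9 were below 0 with a median of -0.00, and the smallest p belonged to the histone chaperone genes Asf1b (-0.32, SE 0.15) and Nap1l1 (-0.11, SE 0.06).

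Among 22 further nucleotide supply genes, 18 were below 0 with a median of -0.06. Dut, which removes dUTP and provides the precursor of thymidylate, read 40.7, 40.8 and 43.4 CPM in sgLTN1 libraries and 48.8, 48.2 and 56.7 CPM in sgNT libraries (-0.30, SE 0.09, unadjusted p = 0.00585 and adjusted p = 0.161). Gart, an enzyme of purine synthesis, stood at -0.23 (SE 0.08, adjusted p = 0.219). Among 28 tested E2F and G1/S control genes, 16 were below 0 with a median of -0.07. The sum over these 28 genes was lower in every sgLTN1 library, with a ratio of the means of 0.941. This list mixes kinase inhibitor genes with drivers of S-phase entry, so its sum does not describe the drivers alone. The inhibitor genes Cdkn2c and Cdkn2a differed most in mean CPM. Cdkn2c averaged 78.1 CPM with sgLTN1 and 92.9 CPM with sgNT, and Cdkn2a 102 and 113 CPM, with overlap. Of the 28 genes in the list, 12 were above 0. The lowest p there belonged to Tfdp1, the DNA-binding partner of E2F proteins, with 12.6 ± 0.291 CPM with sgLTN1 and 16.7 ± 2.19 CPM with sgNT (-0.39, SE 0.12, adjusted p = 0.176), and to the kinase inhibitor gene Cdkn1a (-0.21, SE 0.07, adjusted p = 0.208).

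S-phase checkpoint and repair genes had 14 of 22 below 0 and a median of -0.13, with the uracil glycosylase gene Ung (-0.34, SE 0.11, adjusted p = 0.183) and the exonuclease gene Exo1 (-0.32, SE 0.13, adjusted p = 0.281) at the smallest p. Mitotic proliferation markers had 16 of 19 below 0 and a median of -0.11. Their summed footprints overlapped between the groups, with a ratio of the means of 0.966. The sums were 1737, 1680 and 1588 CPM in sgLTN1 libraries and 1735, 1795 and 1654 CPM in sgNT libraries. At an unadjusted p under 0.05 in edgeR 6 of these markers were lower (31.6%, against 20.4% of the members and 7.56% of all tested genes). In every sgLTN1 library 7 were lower (36.8%, against 34.7% of the members and 10.1% of all tested genes). Tpx2, a spindle assembly factor, read 108, 106 and 103 CPM with sgLTN1 and 115, 129.8 and 123 CPM with sgNT (-0.22, SE 0.07, adjusted p = 0.184), and Birc5, the survivin gene, stood at -0.29 (SE 0.10, adjusted p = 0.219). The share below 0 was 84.2% of the mitotic markers and 83.7% of the members. No gene of these 6 lists passed the threshold, and the part that proliferation plays in the members' values was not tested.

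**Figure D5:**
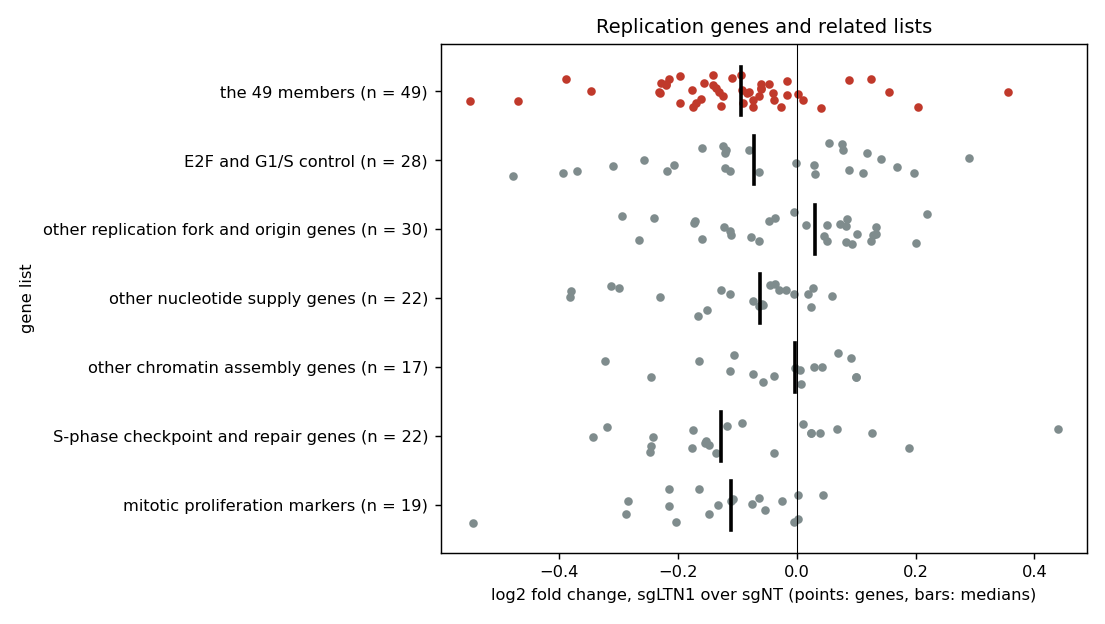
Log2 fold change of sgLTN1 over sgNT for every tested gene of the 49 members (red) and of 6 related lists (grey), with vertical spread added for legibility and bars at the medians. The medians run from -0.13 for checkpoint and repair genes to 0.03 for the further fork and origin genes.

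Some counts carry an added uncertainty. RefSeq lists pseudogenes named after Pcna, Nasp and Tyms, with which reads could be exchanged. The spans of 14 members overlap another protein-coding gene, among them Pold2, Rpa1, E2f1 and Orc1, and the strand setting of the counting is not given in the sources used here.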

How the data were processed

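Ribosome footprints were sequenced from 6 MIN6 libraries, which share 1 batch label. The authors deposited whole-number read counts per gene. The tools listed in the submitters' processing notes are STAR 2.7.11a, Bowtie2 2.5.4, featureCounts 2.12.3, fastp 0.23.4, SAMtools 1.9 and UMI-tools 1.1.2, and the build is GRCm39, with neither roles nor settings stated. Their second deposited table holds, per the file headers, DESeq2 results: log2 fold changes and standard errors, mean normalized signal, a Wald score and p-values (DESeq2 1.38.3 in the notes).

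The test used edgeR 4.0.16 under R 4.3.3 (filterByExpr, TMM factors 0.954 to 1.04, quasi-likelihood test of group over all 6 libraries, Benjamini-Hochberg over 12782 genes, threshold 0.05), with limma 3.58.1 and DESeq2 1.42.0 as alternatives. SEs come from the test statistic. The scripts were tested on simulated data. Replicate pairs differed by more than sampling noise (chi-square per degree of freedom 2.61 to 7.23). Same-numbered libraries of the 2 groups had correlated deviations of -0.05, 0.07 and 0.09, and differently numbered ones ran from -0.12 to 0.10. Numbers were therefore not used as pairs in the main test. With the number as a block, 609 genes passed the threshold against 23, and the cause was not tested. Values per library are given for the member with the most footprints and the 2 with the smallest p in each role, and for others chosen after their values were seen. From each related list the 2 genes with the smallest p are named. Cdkn2c and Cdkn2a were added after their values were seen. Levels per coding length were not computed. The members and lists were chosen with earlier results of these data known.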

Additional observations from a re-analysis of the deposited data

How the results depend on the processing

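No member passed the threshold under any of 16 alternatives, whose lowest adjusted p of a member ran from 0.0766 to 0.453. The members' median was -0.17 under total counts, where the median of all genes was -0.09, and -0.15 with the abundance trend removed. It lay between -0.12 and -0.08 with 1 library left out and was below the median of all genes under all 16. Members below 0 numbered 35 to 44, the lowest from the 40 members with a mean of at least 100 counts.

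The count of all genes past the threshold was less settled than the members' count. Against 23 in the comparison as reported, it was 42 under total counts (8 higher and 34 lower), 227 by DESeq2, 40 by limma-voom, 222 with no filter, 35 with a mean of at least 100 counts, 609 with the replicate number as a block, and between 4 (without sgLTN1 library 2) and 333 (without sgLTN1 library 3) with 1 library left out. The block left the members' count at 0, with 13 lower at an unadjusted p under 0.05 (26.5% against 8.69% of all genes under the block). The cause of these shifts was not tested.

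Of 775 member values under alternatives, 42 changed sign, in 12 members. With 1 library left out, 32 of the 49 members moved by over 1.5 times in at least 1 case, these 12 among them. Pole was -0.035 under total counts. Chaf1a was -0.073 under total counts, -0.019 under upper quartile, -0.022 with a mean of at least 100 counts and -0.0021 with the abundance trend removed. Ccne2 was -0.067, -0.012, -0.015 and -0.013 under the same 4. Pola2 was 0.0087 by DESeq2 and 0.0028 with no filter. Fen1 was 0.0040 by DESeq2, 0.0037 with no filter and 0.0044 with the trend removed, and Pole2 was 0.0049 with the trend removed. With 1 library left out the ranges were -0.0080 to 0.053 for Ccne2, -0.030 to 0.041 for Chaf1a, -0.11 to 0.051 for Fen1, -0.32 to 0.072 for Gins3, -0.073 to 0.031 for Pola2, -0.15 to 0.012 for Pold1, -0.029 to 0.10 for Pole, -0.091 to 0.11 for Pole2, -0.059 to 0.0038 for Rfc1, -0.18 to 0.037 for Rfc4, -0.30 to 0.055 for Rfc5 and -0.14 to 0.073 for Rpa2. The widest errors were those of members with few counts, such as Orc1 and Gins1.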
